A study of Sus scrofa with 12 samples.

Results

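MOSMO, ZSCAN31, RAB11FIP5 and CCDC191 are 4 porcine genes that were chosen because their normalised read counts (CPM, counts scaled to the size of the library) were lower in the longissimus dorsi of pigs with a high breeding value for muscle myoglobin (High MB) than in that of pigs with a low one (Low MB). They are 4 of the 25880 genes listed in the gene count tables, and all 4 were among the 13373 genes that passed the filter on low counts. The difference between the groups selected them, and it is therefore given below as a description, with no p-value of their own, and the calls made across all genes are given only to place the 4 beside the rest.

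Each of the 12 animals was a castrated male Iberian pig with 1 RNA-seq library, and each group held 6 pigs. All came from 1 closed commercial population, were finished outdoors on acorns and grass, and were picked for extreme estimated breeding values of 1 season with full siblings avoided. Muscle myoglobin ran from 2.376 to 2.559 mg/g among High MB pigs and from 1.226 to 1.58 mg/g among Low MB pigs. The pigs were slaughtered after this finishing period, and individual ages were not used here.

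MOSMO encodes a small membrane protein that works with the ubiquitin ligase MGRN1 to remove Smoothened from the cell surface and primary cilium, which lowers the response of a cell to Hedgehog ligands. RAB11FIP5 is an effector of the small GTPase Rab11 on recycling endosomes, the compartment that returns receptors and transporters to the plasma membrane. ZSCAN31 is a zinc finger protein with a SCAN domain, a dimerisation module of a vertebrate family of DNA-binding proteins, and CCDC191 is a coiled-coil protein of poorly known function.

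In the RefSeq annotation of Sscrofa11.1, MOSMO is listed under its older symbol C3H16orf52 at chr3:24107878-24176161 on the minus strand, with 3 exons. ZSCAN31 lies at chr7:22173459-22181784 on the minus strand, with 5 exons after merging its transcripts. RAB11FIP5 lies at chr3:69656660-69699542 on the plus strand and has 7 merged exons. CCDC191 lies at chr13:145879963-145981138 on the plus strand and has 19 merged exons. Both MOSMO and CCDC191 start head to head with a protein-coding gene on the opposite strand, PDZD9 at a distance of 78 bases and QTRT2 at a distance of 99 bases. Of the 19560 protein-coding genes on placed chromosomes, 3.9% have such a partner within 100 bases. The nearest divergent protein-coding starts lie 107647 bases from ZSCAN31 and 85494 bases from RAB11FIP5.

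The stretches between these paired starts are shown because each is shared by a chosen gene and by a partner whose expression was measured in the same libraries. They are written 5′ to 3′ on the strand of the chosen gene, toward its start, with CpG dinucleotides in capitals (Sscrofa11.1, chr3:24176162-24176239, minus strand, and chr13:145879864-145879962, plus strand).
MOSMO and PDZD9: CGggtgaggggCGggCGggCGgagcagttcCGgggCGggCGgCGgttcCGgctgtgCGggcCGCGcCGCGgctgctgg
CCDC191 and QTRT2: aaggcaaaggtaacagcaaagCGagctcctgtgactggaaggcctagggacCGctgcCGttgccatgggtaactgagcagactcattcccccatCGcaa
The MOSMO stretch holds 14 CpG and 84.6% G and C, and the CCDC191 stretch holds 4 CpG and 56.6% G and C.

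The libraries held between 38914271 and 91318334 gene counts, and both groups contained deep libraries of over 50000000 counts (2 High MB, 3 Low MB) as well as standard ones (4 High MB, 3 Low MB). Within each group, no library repeated another. Muscle fibre markers with a listed symbol (7 of 12, among them ACTA1, CKM and DES) summed to between 84233 and 142304 CPM in 11 pigs and to 49282 CPM in High MB pig 2, and those without one included TTN and the adult myosin heavy chains MYH1, MYH2, MYH4 and MYH7. The library of High MB pig 2 also stood apart by its TMM scaling factor, 1.21 against 0.891 to 1.03 in the other 11, and held the highest RAB11FIP5 and the lowest ZSCAN31 of its group. Without it, the log2 fold changes described below were -0.47 for MOSMO, -0.71 for ZSCAN31, -0.67 for RAB11FIP5 and -0.59 for CCDC191.

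MOSMO was the most abundant of the 4 genes. Its expression ranged from 17.5 to 21.7 CPM in the High MB pigs, with a median of 19.6, and from 26.1 to 29.4 CPM in the Low MB pigs, with a median of 27.8. Every High MB pig was below every Low MB pig. The means were 19.7 ± 1.63 CPM (SD, n = 6) and 27.7 ± 1.10 CPM (SD, n = 6). On the log2 scale the fold change was -0.49 (SE 0.0854), and the High MB mean stood at 71.3% of the Low MB mean. The log2 difference was -0.39 among the deep libraries and -0.52 among the standard ones. These values rest on 680 to 2015 counts per library, and counting error alone is then 3.83% of a value at the lowest count.

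CCDC191 was expressed at a lower level and was likewise separate between the groups. It ranged from 1.78 to 2.46 CPM in the High MB pigs (median 2.28) and from 2.70 to 4.15 CPM in the Low MB pigs (median 3.36). The lowest Low MB pig was 1.10 times the highest High MB pig, a narrower gap than the 1.21 times of MOSMO. The means were 2.24 ± 0.253 CPM and 3.44 ± 0.592 CPM (SD over 6 pigs each), and the log2 fold change was -0.61 (SE 0.166). Deep libraries alone gave a log2 difference of -0.56 and standard ones -0.60. The spread among the Low MB pigs was wide, with Low MB pigs 4 and 6 at 4.02 and 4.15 CPM and pig 5 at 2.70 CPM, near the High MB range.

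RAB11FIP5 overlapped between the groups by 1 pig on each side. Its expression ranged from 8.05 to 11.3 CPM in the High MB pigs, with a median of 9.04, and from 10.9 to 17.8 CPM in the Low MB pigs, with a median of 14.2. High MB pig 2, at 11.3 CPM, was above Low MB pig 6, at 10.9 CPM, and the other 5 pigs of each group were apart. The means were 9.19 ± 1.25 CPM and 14.2 ± 2.88 CPM (SD, n = 6 each), and the log2 fold change was -0.63 (SE 0.147). Deep libraries alone gave a log2 difference of -0.57 and standard ones -0.68. Low MB pigs 4, 5 and 6 were at 10.9 to 12.4 CPM and Low MB pigs 1, 2 and 3 above them at up to 17.8 CPM, each trio with deep as well as standard libraries. The last exon of RAB11FIP5 shares 452 exonic bases with LOC106509786, a long non-coding RNA gene on the opposite strand. The strand setting of the counting is not given in the sources used here, so that reads within these 452 of its 7391 exonic bases cannot be told apart between the pair.

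ZSCAN31 had the lowest level and the largest fold change of the 4. It ranged from 0.644 to 1.57 CPM in the High MB pigs (median 1.10) and from 1.55 to 2.42 CPM in the Low MB pigs (median 2.09). High MB pig 5 and Low MB pig 2 met at 1.57 and 1.55 CPM, and no other pigs crossed. The means were 1.12 ± 0.368 CPM and 2.01 ± 0.343 CPM (SD, n = 6 each). The log2 fold change was -0.85 (SE 0.249), with the High MB mean at 55.6% of the Low MB mean, and it was -0.82 among deep and -0.91 among standard libraries. Only 31 to 153 counts per library stood behind these values, and counting error alone reaches 18.0% of a value at the lowest count. ZSCAN31 belongs to a family of closely related zinc finger genes, some of them its neighbours, and the assignment of reads among such copies is uncertain.

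**Figure D1:**
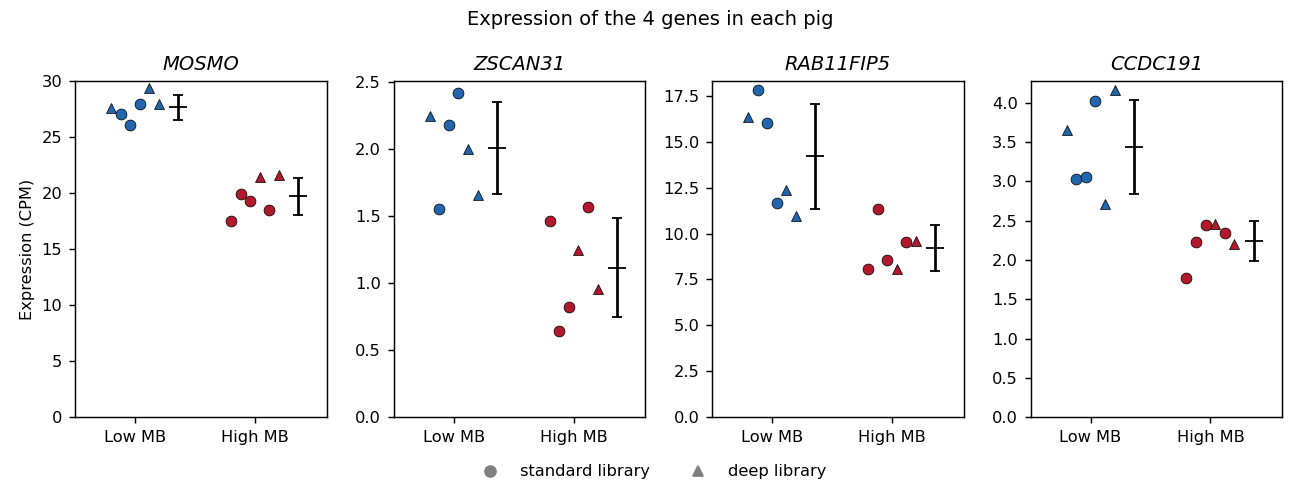
Expression of MOSMO, ZSCAN31, RAB11FIP5 and CCDC191 (CPM, linear axes from 0) in each Low MB (blue) and High MB (red) pig, with deep libraries as triangles, standard libraries as circles, and the mean ± SD of 6 pigs beside each group. MOSMO and CCDC191 show no overlap, and ZSCAN31 and RAB11FIP5 overlap by 1 pig on each side.

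For ZSCAN31, the study also designed a pair of primers for quantitative PCR, whose measurements were not analysed here. They are shown because they mark the coding stretch that was assayed, across 1 intron, in a gene with few counts. The forward primer matched exon 3 at chr7:22176484-22176503 and the reverse primer exon 4 at chr7:22175826-22175845 (Sscrofa11.1, minus strand gene, exons of the 4-exon RefSeq transcript), 193 bases apart in the mRNA from end to end.
Forward: gggcctcaaaaacttggaga
Reverse: tggggtgtcccctctgattt

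Because CPM grows with transcript length, levels were also compared between the genes as CPM per kb of merged RefSeq exons. The counts belong to Ensembl gene identifiers, whose exons can differ from those of RefSeq, so this scale is approximate. On this scale MOSMO averaged 5.28, RAB11FIP5 1.58, CCDC191 0.641 and ZSCAN31 0.383 CPM per kb over the 12 pigs. Among 10549 genes with a length, 61.8% lay below MOSMO, 36.9% below RAB11FIP5, 22.4% below CCDC191 and 15.9% below ZSCAN31. The ranges over the 12 pigs, on the same scale, were 3.90 to 6.55 for MOSMO, 1.09 to 2.41 for RAB11FIP5, 0.401 to 0.939 for CCDC191 and 0.158 to 0.592 for ZSCAN31. MOSMO and RAB11FIP5 were thus apart from every other level, whereas the ranges of CCDC191 and ZSCAN31 overlapped, although CCDC191 was above ZSCAN31 in each of the 12 pigs.

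Across all genes, edgeR's quasi-likelihood test called none of the 13373 (0%) at a Benjamini-Hochberg adjusted p under 0.10 with an absolute log2 fold change over 0.58, and 1132 genes (8.46%) had an unadjusted p under 0.05, 419 of them (3.13%) lower in High MB. None of the 4 genes was called by edgeR. DESeq2 called 29 of 14417 genes (0.201%), and 2 of these were lower in High MB (0.0139%), namely RAB11FIP5 and PDE4D, a cyclic AMP phosphodiesterase named after its value was seen. The limit of 0.58 was passed by ZSCAN31, RAB11FIP5 and CCDC191, beside 203 of 13373 genes (1.52%) with a log2 fold change under -0.58 at any p. MOSMO did not reach it, and ranked 321 from the lowest log2 fold change, against 67 for ZSCAN31, 166 for RAB11FIP5 and 178 for CCDC191. All 6 High MB pigs were below all 6 Low MB pigs in 26 of 13373 genes (0.194%), which include MOSMO and CCDC191, and above them in 31 genes (0.232%). The 4 genes were chosen on this contrast, and nothing is read from these counts.

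The spread between pigs of a group was estimated by edgeR as a biological coefficient of variation, which is drawn toward that of genes of similar level. It was 13.1% for MOSMO, 19.6% for RAB11FIP5, 21.5% for CCDC191 and 29.3% for ZSCAN31. The median over the 500 genes nearest in level was 18.0%, 20.4%, 29.1% and 36.1%, in the same order MOSMO, RAB11FIP5, CCDC191 and ZSCAN31. Taken directly from CPM, counting error included, the SD was 8.28% of the mean in High MB and 3.97% in Low MB for MOSMO. It was 13.6% and 20.3% for RAB11FIP5, 11.3% and 17.2% for CCDC191, and 32.9% and 17.1% for ZSCAN31. A gene with a small spread is more readily picked for a difference, and these values are a description.

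The depth class of the library did not enter the choice of the genes and was tested with the group in the same model. The coefficient of deep against standard libraries was 0.13 (SE 0.0815) on the log2 scale for MOSMO, -0.04 (SE 0.261) for ZSCAN31, -0.15 (SE 0.150) for RAB11FIP5 and 0.07 (SE 0.174) for CCDC191. The adjusted p-values of edgeR over all genes were 0.504, 0.962, 0.696 and 0.882, respectively. No gene reached an adjusted p under 0.10 for depth class, and 1854 of 13373 (13.9%) had an unadjusted p under 0.05.

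Whether the 4 genes also followed myoglobin content among pigs of the same group was addressed by 8 relations (4 genes in 2 groups of 6 pigs), each with an exact two-sided permutation test. The smallest p possible in this test is 0.00278 for Spearman's rho without ties, and it can be smaller for Pearson's r. ZSCAN31 in the Low MB pigs gave Pearson's r = 0.909 (exact permutation p = 0.0208, adjusted p = 0.167) and Spearman's rho = 0.829 (exact permutation p = 0.0583, adjusted p = 0.467). It did not pass the correction. The pigs with the least myoglobin, Low MB 2 and Low MB 6 at 1.226 and 1.239 mg/g, had the lowest ZSCAN31 of the group at 1.55 and 1.66 CPM, and Low MB pig 4 had the highest at 2.42 CPM with 1.524 mg/g. Without the 2 pigs farthest from the median myoglobin content, r was 0.992 over 4 pigs. The sign of this relation is opposite to that of the difference between the groups, in which the pigs with more myoglobin had less ZSCAN31.

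The remaining 7 relations had adjusted p-values of at least 0.803 by exact permutation, for Pearson and Spearman alike. In the High MB pigs, r was 0.503 for ZSCAN31, 0.235 for CCDC191, -0.27 for MOSMO and -0.28 for RAB11FIP5, and rho was 0.600, 0.429, -0.31 and -0.49. In the Low MB pigs, r was -0.32 for MOSMO, 0.0759 for RAB11FIP5 and 0.0172 for CCDC191, and rho was -0.14, -0.14 and 0.143. With 6 pigs a group and a narrow range of myoglobin in each, relations of this size could not be separated from the spread between pigs. Without the 2 farthest pigs, r in the High MB pigs was 0.712 for ZSCAN31, 0.0801 for CCDC191, -0.33 for MOSMO and 0.117 for RAB11FIP5, and in the Low MB pigs it was -0.21 for MOSMO, 0.385 for RAB11FIP5 and 0.0489 for CCDC191.

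**Figure D2:**
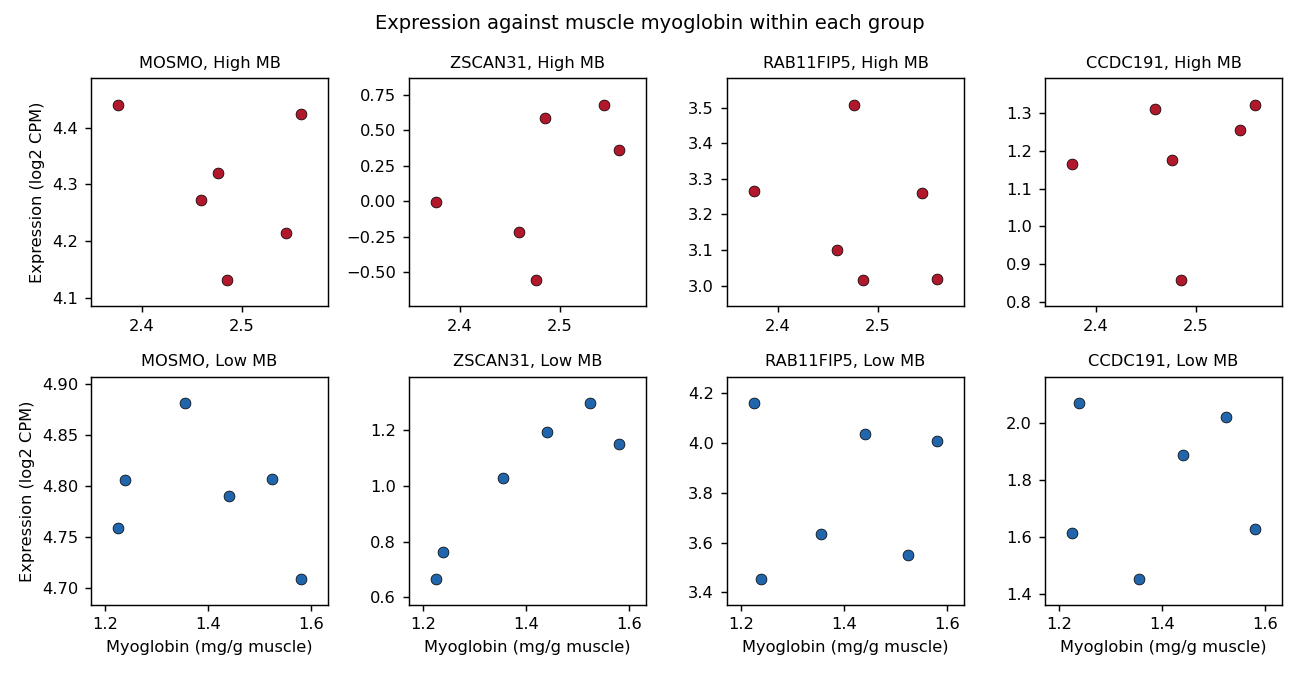
Expression (log2 CPM) of each gene against the myoglobin content of the muscle (mg/g), with 1 point per pig, in the 6 High MB pigs (top row, red) and the 6 Low MB pigs (bottom row, blue). Axes differ between panels. ZSCAN31 in the Low MB pigs gives r = 0.909, which did not pass the correction over the 8 relations, and neither did any other panel.

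The 4 genes were also compared with each other after subtraction of each group's mean, over the 12 pigs. The r of the 6 pairs ranged from -0.33 (ZSCAN31 and RAB11FIP5) to 0.281 (MOSMO and CCDC191), and the smallest adjusted p by permutation within the groups was 0.652 for Pearson's r and 0.676 for Spearman's rho. Spearman's rho ranged from -0.43 (RAB11FIP5 and CCDC191) to 0.224 (MOSMO and CCDC191). For each pair, r was also taken without the 2 pigs farthest from the median centred log2 CPM of its first-named gene. These values lay between -0.47 (MOSMO and RAB11FIP5) and 0.0320 (RAB11FIP5 and CCDC191), with different pigs able to leave in different pairs. A common ordering of the pigs within the groups was not detectable among the 4 genes.

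Among 11353 genes with a symbol, those most like each of the 4 were found by the same centred Pearson correlation of log2 CPM over 12 pigs, given as a description since the highest of so many values is large by selection. MOSMO was closest to KCNK5, a potassium channel (r = 0.911), HMG20B, a chromatin protein (0.876), and GLB1, the lysosomal beta-galactosidase (0.851). ZSCAN31 was closest to CENATAC, a minor spliceosome factor (0.912), JSRP1, a protein of the junctional sarcoplasmic reticulum (0.911), and DPT, the extracellular matrix protein dermatopontin (0.893). RAB11FIP5 was closest to THOC7, an mRNA export subunit (0.943), ARMT1 (0.901) and TMEM170A (0.900). CCDC191 was closest to POMK, a kinase that modifies the sugar chain of dystroglycan (0.956), MXD3, a transcription factor of the MAX network (0.945), and VPS26C, a subunit of an endosomal retrieval complex (0.891). None of these 12 genes had an adjusted p under 0.10 between the groups by edgeR, and their log2 fold changes ran from -0.15 (CENATAC) to 0.64 (KCNK5). KCNK5 was expressed at 0.406 ± 0.347 CPM in High MB and 0.261 ± 0.130 CPM in Low MB (SD, n = 6 each), a level of few counts.

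Genes next to each of the 4 on the chromosome were examined as the nearest 2 tested genes on each side with a unique matching symbol. Tested genes without such a symbol were passed over, so closer tested genes can exist. The divergent partner of MOSMO, PDZD9, ranged from 67.0 to 183 CPM in High MB (median 123) and from 57.0 to 204 CPM in Low MB (median 148), and the groups overlapped widely. Its log2 fold change was -0.27 (SE 0.282, edgeR adjusted p = 0.817). In RefSeq, PDZD9 overlaps another gene, LOC100524613, and the share of its counts that belongs to each is uncertain. QTRT2, a subunit of the enzyme that inserts queuosine into tRNA and the partner of CCDC191, ranged from 2.62 to 5.50 CPM in High MB (median 3.78) and from 3.48 to 6.02 CPM in Low MB (median 4.46). Its log2 fold change was -0.25 (SE 0.188, edgeR adjusted p = 0.731), again with overlap.

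Within the groups, MOSMO and PDZD9 had a centred r of 0.239 (permutation p = 0.461) and rho of 0.105 (permutation p = 0.768), and CCDC191 and QTRT2 had a centred r of 0.215 (permutation p = 0.498) and rho of 0.0490 (permutation p = 0.889), over 12 pigs each. The adjusted p over the 2 pairs was 0.498 for both values of r. Without the 2 pigs farthest from the median centred log2 CPM of MOSMO or of CCDC191, r was -0.0041 and -0.27, respectively.

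Of the other 14 neighbours, none reached an adjusted p under 0.10 by edgeR. Those of MOSMO were EEF2K, the kinase of elongation factor 2 (log2 fold change -0.03, SE 0.213), POLR3E, a subunit of RNA polymerase III (-0.12, SE 0.150), and CRYM, which binds thyroid hormone (0.97, SE 0.393, unadjusted p = 0.0264, edgeR adjusted p = 0.563). CRYM lies 639 kb away and was expressed at 0.664 CPM in High MB and 0.337 CPM in Low MB. The neighbours of ZSCAN31 included the SCAN domain genes PGBD1 (0.11, SE 0.205), ZSCAN26 (-0.11, SE 0.230) and ZSCAN12 (-0.19, SE 0.216), 5.21 to 38.3 kb away, and the ubiquitin-like gene UBD (-0.02, SE 0.351). Beside RAB11FIP5 lie SFXN5, a mitochondrial carrier of the sideroflexin family (0.09, SE 0.228), SMYD5 (-0.19, SE 0.109), PRADC1 (-0.10, SE 0.101) and SPR, sepiapterin reductase (-0.06, SE 0.107). CCDC191 has ZDHHC23, a palmitoyltransferase (0.60, SE 0.375), the repressor ZBTB20 (-0.02, SE 0.362) and ATP6V1A, a subunit of the vacuolar proton pump (-0.07, SE 0.161), as its other neighbours.

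**Figure D3:**
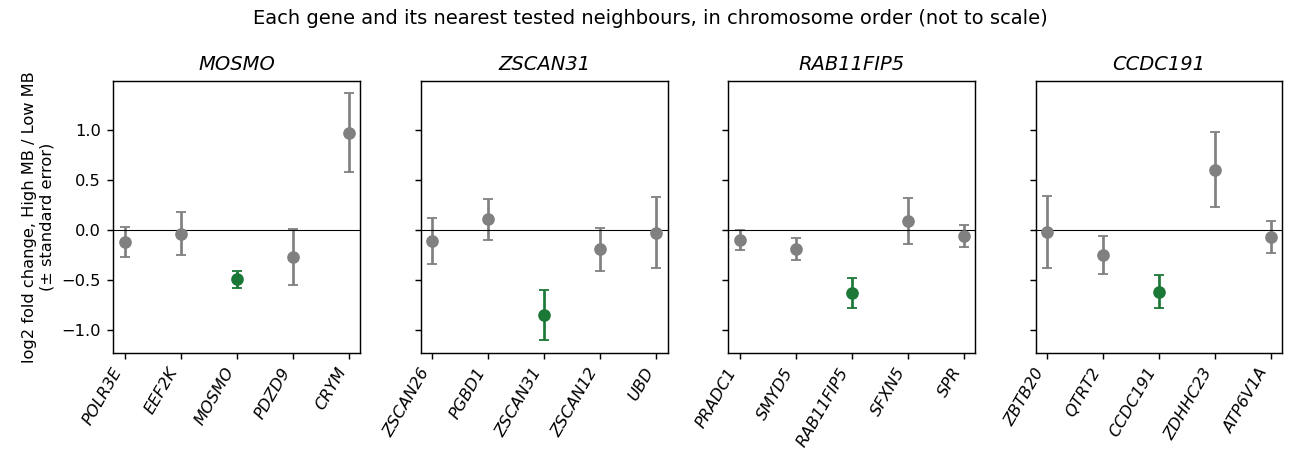
The log2 fold change (High MB over Low MB, ± standard error) of each of the 4 genes (green) and of the 2 nearest tested genes on each side (grey), in chromosome order and not to scale. Only tested genes with a unique matching symbol could be grey genes. The 4 green values lie between -0.85 and -0.49, and the grey values between -0.27 and 0.97. The green genes were chosen for a low value on this contrast and the grey ones were not, so nothing is read from their distance.

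The Hedgehog pathway was described with a list of 35 genes, 32 of which had a listed symbol and 28 of which were tested. None was called by edgeR at the adjusted p. At an unadjusted p under 0.05, 2 were higher in High MB and 0 lower, against 5.33% higher and 3.13% lower of all genes tested. DESeq2 called 0. The median log2 fold change of the list was 0.13 (from -0.15 to 0.92), and that of all genes was -0.02. Leaving out 1 pig gave list medians from 0.0567 (without High MB pig 4) to 0.21 (without Low MB pig 6), with 0.0605 and 0.0766 without Low MB pigs 1 and 3. Without High MB pig 2, 3 of 28 genes were higher (10.7%) and 0 lower at this p, beside 5.8% higher and 4.53% lower of all genes.

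In the control of Smoothened, the ligase MGRN1 was expressed at 21.8 ± 3.14 CPM in High MB and 23.3 ± 2.43 CPM in Low MB (log2 fold change -0.10, SE 0.116). SMO, which encodes Smoothened, was at 6.08 ± 1.39 and 5.48 ± 1.62 CPM (log2 fold change 0.15, SE 0.210). PTCH1, the Hedgehog receptor that is also induced by the pathway, was at 5.13 ± 0.833 and 5.49 ± 1.18 CPM (-0.10, SE 0.175). The groups overlapped for each of these 3 genes, and edgeR adjusted p-values were 0.848, 0.873 and 0.903.

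Downstream of Smoothened, the inhibitor SUFU was at 6.96 ± 1.53 CPM in High MB and 6.04 ± 0.688 CPM in Low MB (log2 fold change 0.20, SE 0.154). GLI1, a transcription factor and standard target gene of the pathway, was at 1.06 ± 0.287 and 0.807 ± 0.277 CPM (0.38, SE 0.297), GLI2 at 1.12 ± 0.309 and 1.16 ± 0.336 CPM (-0.05, SE 0.273), and GLI3 at 1.71 ± 0.320 and 1.52 ± 0.614 CPM (0.17, SE 0.275). These 4 genes had edgeR adjusted p-values between 0.731 and 0.974, and none was separate between the groups. The 2 genes with an unadjusted p under 0.05 were ARRB1, a beta-arrestin that binds active Smoothened (0.64, SE 0.184, unadjusted p = 0.00352, edgeR adjusted p = 0.563), and DISP1, which releases Hedgehog ligand from producing cells (0.25, SE 0.105, unadjusted p = 0.0323, edgeR adjusted p = 0.564). ARRB1 ranged from 4.66 to 7.66 CPM (median 5.31) in High MB and from 2.61 to 5.07 CPM (median 3.41) in Low MB.

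Recycling through Rab11 was described with 41 genes, 36 with a listed symbol and 35 tested. None was called by edgeR or DESeq2, and at an unadjusted p under 0.05, 1 was lower and 1 higher in High MB (3.13% and 5.33% of all genes). The median log2 fold change was -0.08, with a range from -0.31 to 0.47. It was -0.02 without Low MB pig 4, -0.04 without Low MB pig 2 and -0.03 with upper quartile size factors. Without High MB pig 2, 2 genes were lower (5.71%) and 0 higher at this p, beside 4.53% lower and 5.8% higher of all genes in that fit. The GTPases themselves were at 54.9 ± 4.44 CPM in High MB and 58.0 ± 2.22 CPM in Low MB for RAB11A (log2 fold change -0.08, SE 0.0839, edgeR adjusted p = 0.813) and at 51.0 ± 4.71 and 58.2 ± 4.68 CPM for RAB11B (-0.19, SE 0.0935, edgeR adjusted p = 0.597).

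RAB11FIP2, a class I effector like RAB11FIP5, ranged from 23.1 to 28.9 CPM (median 26.4) in High MB and from 25.1 to 38.8 CPM (median 32.1) in Low MB, with a log2 fold change of -0.31 (SE 0.117, unadjusted p = 0.0201, edgeR adjusted p = 0.563). The groups overlapped. The class II effectors RAB11FIP3 and RAB11FIP4 had log2 fold changes of -0.0020 (SE 0.152, edgeR adjusted p = 0.997) and 0.35 (SE 0.553, edgeR adjusted p = 0.886), the latter with as few as 1 count in a library, and RAB11FIP1 had no listed symbol. EXOC6, a subunit of the exocyst that tethers vesicles at the plasma membrane, was at 4.60 ± 0.783 CPM in High MB and 3.54 ± 0.745 CPM in Low MB (log2 fold change 0.38, SE 0.176, unadjusted p = 0.0488, edgeR adjusted p = 0.586).

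The SCAN domain family was described with 45 genes other than ZSCAN31, 33 with a listed symbol and 31 tested. None was called by edgeR or DESeq2, 2 were lower and 0 higher in High MB at an unadjusted p under 0.05 (3.13% and 5.33% of all genes), and 22 of the 31 had a log2 fold change below 0, beside 7103 of 13373 genes. The median was -0.15, with a range from -1.11 to 0.27. It was -0.08 without High MB pig 2, -0.09 without Low MB pig 1 and -0.09 with upper quartile size factors. Without High MB pig 2, 3 genes were lower (9.68%) and 1 higher (3.23%) at this p, beside 4.53% lower and 5.8% higher of all genes in that fit. ZSCAN25 was at 4.41 ± 0.847 CPM in High MB and 5.90 ± 0.604 CPM in Low MB (log2 fold change -0.42, SE 0.152, unadjusted p = 0.0147, edgeR adjusted p = 0.563). ZSCAN20 was at 3.86 ± 0.748 and 5.33 ± 1.18 CPM (-0.46, SE 0.180, unadjusted p = 0.0211, edgeR adjusted p = 0.563). The lowest value belonged to ZSCAN9, named after its value was seen, at 0.544 ± 0.591 and 1.21 ± 0.695 CPM (-1.11, SE 0.575, edgeR adjusted p = 0.606), and its groups overlapped.

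**Figure D4:**
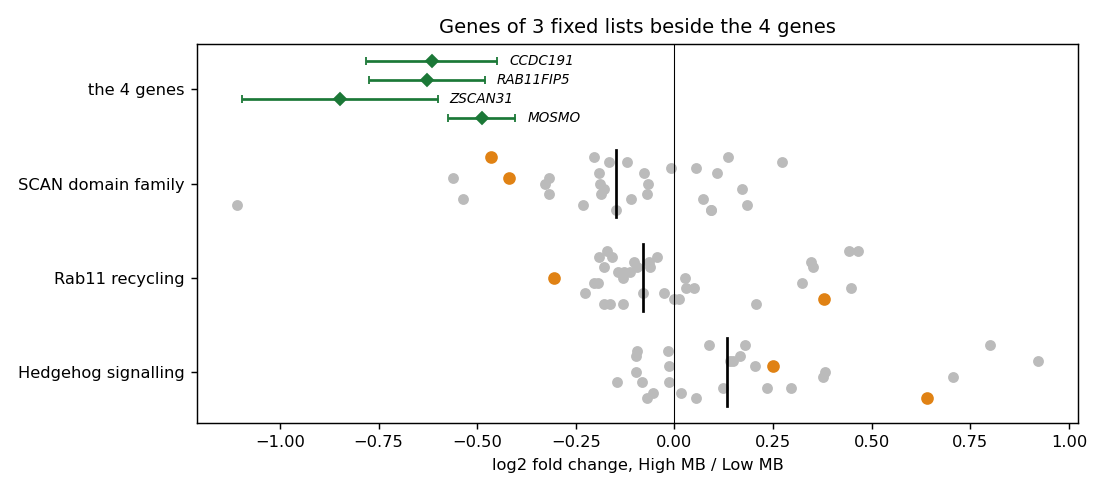
The log2 fold change (High MB over Low MB) of the tested genes of the Hedgehog, Rab11 recycling and SCAN domain lists (1 point per gene, orange where the unadjusted edgeR p was under 0.05, black bar at the median, vertical scatter only for legibility), beside the 4 genes with their standard errors (green). The list medians are 0.13, -0.08 and -0.15 (0.0567 to 0.21, -0.10 to -0.02 and -0.16 to -0.08 when each pig is left out), and the 4 genes lie between -0.85 and -0.49.

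Muscle pieces hold several cell types, and in bulk RNA fewer cells of a type and less RNA per cell cannot be told apart. Markers of other cell types moved with the group at an unadjusted p, and none had an adjusted p under 0.10 by edgeR. Of 7 macrophage markers tested, 6 were higher in High MB at an unadjusted p under 0.05 (median log2 fold change 0.78), beside 5.33% higher and 3.13% lower of all genes tested, and their summed level ran from 61.4 to 127 CPM in High MB and from 29.4 to 71.2 CPM in Low MB. The corresponding counts were 3 of 7 for fibroblast (median 0.64), 2 of 6 for adipocyte (0.87), 2 of 6 for endothelial (0.28) and 2 of 3 for erythroid markers (0.71). Satellite cell and Schwann cell markers had 0 of 5 each, and the tested muscle fibre markers had 1 of 7 higher and 1 of 7 lower (median -0.17). Without High MB pig 2, which had the highest macrophage sum, 4 of 7 macrophage markers were higher (median 0.59), beside 5.8% of all genes, the fibroblast, adipocyte, endothelial and erythroid counts were the same, 1 of 5 Schwann cell markers was higher and 0 of 7 muscle fibre markers was lower, with a muscle fibre median of -0.01.

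Within the groups, the summed macrophage level had a centred r of 0.280 with MOSMO, -0.19 with ZSCAN31, -0.39 with RAB11FIP5 and 0.406 with CCDC191 over the 12 pigs. Without High MB pig 2 these were 0.392, 0.203, -0.75 and 0.512, so that ZSCAN31 turned sign. For the summed fibroblast level the values were 0.426, -0.12, -0.30 and 0.198, and for the summed muscle fibre level 0.279, 0.442, -0.59 and -0.0786, in the same order of genes. Without that pig the muscle fibre values were 0.629, -0.12, -0.47 and -0.11, with ZSCAN31 again turned, and the fibroblast values 0.514, -0.18, -0.27 and 0.244. For the summed adipocyte level they were 0.0589, -0.18, -0.33 and -0.50 (0.131, -0.10, -0.43 and -0.46 without it). Over all 8 marker lists and the 4 genes, r ran from -0.67 (satellite cell markers with ZSCAN31) to 0.450 (Schwann cell markers with RAB11FIP5), and without that pig from -0.81 (satellite cell markers with ZSCAN31) to 0.629 (muscle fibre markers with MOSMO). The points share libraries and scaling, and these values are a description. The part of cell composition in the lower levels of the 4 genes was not tested.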

How the data were processed

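Total RNA of longissimus dorsi was sequenced in paired-end libraries. Per the labels and the study's methods, the authors used Trim Galore for trimming, HISAT2 for alignment to Sscrofa11.1 and HTSeq for counting, and deposited unnormalized counts per gene. Strand and overlap settings are not given in the sources used here. The transcript counts were not used here.

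Counts were scaled by TMM and tested in edgeR 4.0.16 (filterByExpr, quasi-likelihood, group only) in R 4.3.3. DESeq2 1.42.0, other size factors and filters, depth class, a replicate block and leaving out each pig were alternatives. CPM used TMM, and log2 CPM a prior count of 2. The fits were checked on simulated data. The standard error was taken from the test statistic. Symbols came from a gene name table, and MOSMO was matched in RefSeq by its older symbol. Named genes were the 4 genes, fixed pathway partners, list genes at an unadjusted p under 0.05, 2 neighbours a side and the 3 most alike genes. The 4 genes and the lists were chosen with earlier results of these data known. Counting errors cover counting only. 1 of the fixed pathway partners is left unreported.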

Additional observations from a re-analysis of the deposited data

Results flagged for a closer look

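Among 49 named genes in 2 groups each, 5 of the 98 combinations had 1 pig whose gap to its nearest neighbour exceeded Dixon's 95% critical value, as a share of the range of log2 CPM over the 6 pigs. Chance flags about 1 in 20 groups.

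CCDC191 was the only one of the 4 genes among them. High MB pig 1 was the lowest at 1.78 CPM, with the next pig of its group at 2.20 CPM (a gap of 0.661 of the range). RAB11FIP3 was lowest in the same pig, at 19.6 CPM against 27.5 CPM (0.754). PTCH1 was lowest in Low MB pig 4 at 3.29 CPM against 5.05 CPM (0.642), and EEF2K was lowest in that pig too, at 72.4 CPM against 116 CPM (0.688). PDZD9 was lowest in Low MB pig 6 at 57.0 CPM against 134 CPM (0.672).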

How the results depend on the processing

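The 4 log2 fold changes stayed below 0 in all 92 values computed under alternatives, and 91 of these moved by less than the spread between pigs. MOSMO in the deep libraries alone was the exception, at -0.39. The 4 genes were chosen for lower values in these same pigs, so the kept sign is a description and no separate support. Leaving out each pig in turn gave -0.52 to -0.46 for MOSMO, -0.97 to -0.71 for ZSCAN31, -0.69 to -0.54 for RAB11FIP5 and -0.68 to -0.55 for CCDC191, and the latter pair missed the limit of 0.58 in some of these fits (RAB11FIP5 without Low MB pig 2 or 3, CCDC191 without High MB pig 1 or Low MB pig 4 or 6). With upper quartile size factors RAB11FIP5 and CCDC191 were at -0.57 and -0.56. DESeq2 called 29 genes where edgeR called 0. Genes at an unadjusted p under 0.05 numbered 419 lower and 713 higher, but 201 lower and 914 higher with upper quartile size factors, and the lower ones were 259 without High MB pig 5 and 265 without Low MB pig 2 (259 to 610 over all pigs left out). For depth class, 26 genes were called with no filter on low counts, and 0 to 19 when each pig was left out, 19 of them without High MB pig 3. Of the relations to myoglobin content, RAB11FIP5 in High MB turned to 0.117 without the 2 farthest pigs, and the leave-one-out values of r ran from -0.78 to 0.377 for MOSMO in High MB, -0.61 to 0.217 for MOSMO in Low MB, -0.32 to 0.601 for RAB11FIP5 in Low MB -0.24 to 0.449 for CCDC191 in Low MB, 0.00904 to 0.649 for CCDC191 in High MB, -0.40 to -0.0287 for RAB11FIP5 in High MB, 0.342 to 0.655 for ZSCAN31 in High MB and 0.869 to 0.988 for ZSCAN31 in Low MB. The values without High MB pig 2 for marker and list counts were added after seeing the data. The cause of these changes was not tested. The individual numbers of the labels do not pair the pigs: deviations of same-numbered pigs correlated at -0.21 to 0.144, and 0 of 6 High MB pigs correlated best with their own number. With the replicate block, edgeR called 0 genes, and the log2 fold changes were -0.49, -0.89, -0.61 and -0.61 for MOSMO, ZSCAN31, RAB11FIP5 and CCDC191. Depth limits ZSCAN31 most, with as few as 31 counts in a library.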
